A study of Mus musculus with 11 samples.

Results

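The Cyp3a genes encode cytochrome P450 enzymes of the CYP3A subfamily. The list searched for held 8 mouse genes, chosen by symbol, and 6 of them had a row among the 13636 genes of the table: Cyp3a11, Cyp3a13, Cyp3a25, Cyp3a41b, Cyp3a44 and Cyp3a59. Cyp3a16 and Cyp3a41a had no row and were not analysed here, and 0 other rows carried a Cyp3a symbol. Every row of the table reached at least 0.878 scaled CPM in some library, so low genes had been left out, and Cyp3a44 was above 1 scaled CPM in the control libraries alone.

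RNA of whole liver was sequenced from male C57BL/6J mice, an inbred laboratory strain, and 11 libraries were used. All mice ate a Western diet from 8 weeks of age, for 1 month before the injections. They then received, over 6 weeks, a miR-30c mimic (4 libraries), a scramble oligomer (3 libraries) or PBS, the vehicle (4 libraries), with doses of both oligomers raised in steps, 2.5 mg/kg at first, 5.0 mg/kg next and 7.5 mg/kg at the end. Whether the libraries stem from different animals is not stated, so the p-values speak only of the spread among libraries, which may be technical.

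CYP3A enzymes are haem proteins of the endoplasmic reticulum that oxidise drugs, steroids and bile acids, with electrons supplied by cytochrome P450 reductase. In the adult mouse liver Cyp3a11 is regarded as the main form and as the counterpart of human CYP3A4. It is a classical target of PXR (Nr1i2), the nuclear receptor that senses foreign compounds. Cyp3a41 and Cyp3a44 are known as forms with higher expression in female mouse liver, and Cyp3a16 as a form of the fetal and newborn liver. Cyp3a13 is expressed in liver and intestine.

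Of the 8 genes, 7 lie in a cluster on chromosome 5 between 145436309 and 146113287 (GRCm38, GENCODE M21), and Cyp3a13 lies on the same chromosome at 137892932 to 137921619. In the order of the chromosome the cluster holds Cyp3a16, Cyp3a41b, Cyp3a41a, Cyp3a44, Cyp3a11 and Cyp3a25 on the minus strand and Cyp3a59 on the plus strand. Each gene was represented by its coding transcript, which had 13 exons in all 8 genes.

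The mature sequence of the microRNA and promoters of 5 of the 6 measured genes are shown here because the injected oligomer is a mimic of that microRNA and because the genes fell into groups that changed unequally. The labels do not give the oligomer's sequence or arm. The 5p arm of mouse miR-30c is printed with its seed, bases 2 to 8, in capitals (RefSeq, GRCm38.p6, the same letters from chr1:23291714-23291736 on the plus strand and chr4:120769584-120769606 on the minus strand).
mmu-miR-30c-5p: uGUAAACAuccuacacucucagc
The letters that pair with the whole seed, TGTTTAC, occurred 0 times in the coding sequence and 0 times in the 3′ UTR of the chosen transcript of all 8 Cyp3a genes. These UTRs were 132 to 1337 bases long. Of 5428 mouse 3′ UTRs with 350 to 700 bases, 1 per gene, 5.43% held these letters.

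The promoters, 250 bases before to 50 bases after the RefSeq gene start, are printed on the gene's own strand (GRCm38.p6). Capitals mark TGTTTAC, the core letters bound by forkhead factors, and AGGTCA, the core letters recognised by nuclear receptors, on either strand. TGTTTAC in DNA happens to have the letters of the seed match, and a promoter is not part of the mRNA.
Cyp3a11, chr5:145879805-145880104, minus strand: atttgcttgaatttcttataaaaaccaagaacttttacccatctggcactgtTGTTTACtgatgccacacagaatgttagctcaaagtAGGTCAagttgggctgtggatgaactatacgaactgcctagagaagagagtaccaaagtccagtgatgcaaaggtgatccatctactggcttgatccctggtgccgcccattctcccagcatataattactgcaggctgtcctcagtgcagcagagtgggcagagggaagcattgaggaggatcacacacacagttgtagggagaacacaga
Cyp3a41b, chr5:145584681-145584980, minus strand: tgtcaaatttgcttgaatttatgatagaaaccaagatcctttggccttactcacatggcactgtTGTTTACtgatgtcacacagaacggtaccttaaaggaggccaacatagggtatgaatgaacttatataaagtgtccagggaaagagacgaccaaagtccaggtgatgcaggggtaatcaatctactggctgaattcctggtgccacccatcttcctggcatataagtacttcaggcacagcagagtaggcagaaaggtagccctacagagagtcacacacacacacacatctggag
Cyp3a44, chr5:145805825-145806124, minus strand: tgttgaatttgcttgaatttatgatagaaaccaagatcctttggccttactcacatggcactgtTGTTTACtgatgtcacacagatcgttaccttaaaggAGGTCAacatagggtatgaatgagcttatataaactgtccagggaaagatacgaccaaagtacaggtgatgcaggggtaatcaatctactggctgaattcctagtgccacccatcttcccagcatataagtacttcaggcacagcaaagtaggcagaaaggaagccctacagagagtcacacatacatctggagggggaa
Cyp3a25, chr5:146009569-146009868, minus strand: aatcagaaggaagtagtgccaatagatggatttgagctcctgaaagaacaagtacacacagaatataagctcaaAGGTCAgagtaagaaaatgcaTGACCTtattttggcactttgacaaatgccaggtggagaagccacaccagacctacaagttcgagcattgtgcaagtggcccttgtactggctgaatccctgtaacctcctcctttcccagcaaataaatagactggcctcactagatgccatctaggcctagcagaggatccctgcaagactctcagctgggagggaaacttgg
Cyp3a13, chr5:137921570-137921869, minus strand: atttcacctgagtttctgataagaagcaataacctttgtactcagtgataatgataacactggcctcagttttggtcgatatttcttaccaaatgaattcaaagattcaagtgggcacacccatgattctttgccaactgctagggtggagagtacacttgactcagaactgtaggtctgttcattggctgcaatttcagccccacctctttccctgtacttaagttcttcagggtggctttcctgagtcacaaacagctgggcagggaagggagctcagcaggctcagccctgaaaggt
TGTTTAC stood in the promoters of Cyp3a11, Cyp3a41b and Cyp3a44, and also in those of Cyp3a16 and Cyp3a41a. It stood in 3.65% of 32851 mouse promoters of the same length. AGGTCA stood 1 time in Cyp3a11 and Cyp3a44 and 2 times, facing in opposite directions, in Cyp3a25 and Cyp3a59, against 16.3% of all promoters with at least 1 match. In Cyp3a41b, Cyp3a16 and Cyp3a41a AGGTCA was not found, and in Cyp3a13 neither string was found. In all 5 strings were searched, and they were chosen after the promoters and the expression values had been seen, so the matches describe these windows and test nothing. The other 3 strings were TATAAA, found in the same 5 promoters as TGTTTAC and in 13.6% of all, and a pair of longer runs read off the Cyp3a promoters themselves. TGTTTAC with the 5 bases that follow it in Cyp3a11 stood in the same 5 promoters and in 6 of all (0.0183%). The first AGGTCA of Cyp3a25 with the 3 bases before and the 5 after it stood in Cyp3a25 and Cyp3a59 and in 4 of all (0.0122%). Both strands were searched. The Cyp3a59 promoter was 95.7% identical to that of Cyp3a25, while the Cyp3a11 promoter was 71.2% identical to that of Cyp3a44, 69.8% to Cyp3a41b and 52.9% to Cyp3a25.

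Values are scaled CPM (counts relative to library size, scaled by the authors), and all values of a library were whole multiples of 1 step. If 1 step is taken as 1 read, the libraries held 39705157 to 60399018 reads in the mimic group, 74519792 to 88869950 in the scramble group and 62848115 to 101380174 in the PBS group. Hepatocyte markers were measured for 10 of 10 listed genes, with summed levels of 29464 to 34453 in mimic, 36386 to 41708 in scramble and 36041 to 41424 scaled CPM in PBS libraries. These sums rest on the authors' scaling. The median log2 change of the 10 markers was -0.13 against scramble and -0.09 against PBS. After division by library totals instead it was 0.46 and 0.52, beside 0.49 and 0.51 for all genes. In whole liver, fewer cells of a type and less RNA per cell cannot be told apart. Mimic replicates 1 and 4 stood apart within their group: Mup rows, which encode abundant male urinary proteins, took 12.5% and 11.6% of their column totals, against 34.8% and 41.3% in mimic replicates 2 and 3.

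The scramble group is the control for an injected oligomer of another sequence. Cyp3a11 and Cyp3a41b fell in the mimic group in this comparison and in that with PBS. Cyp3a25, Cyp3a59 and Cyp3a13 passed the test in neither comparison. Cyp3a44 was below 1 scaled CPM in every mimic library and has a row through its control values, so it could hardly be other than lower, and its values are given as a description without a test. Of the other 5 measured genes, 2 were called lower and 0 higher against scramble, where 32.0% of all genes were called (14.7% lower, 17.3% higher), and the same 2 of 5 against PBS, where 37.1% were called (17.1% lower, 20.0% higher). In these 2 genes the mimic values did not overlap those of either control, as was so for 40.8% of all genes against scramble (19.2% in the lower direction) and 31.7% against PBS (14.5%). Calls are adjusted p-values under 0.05 from limma on log2(value + 1), a scale on which changes of low genes come out too small.

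**Figure D1:**
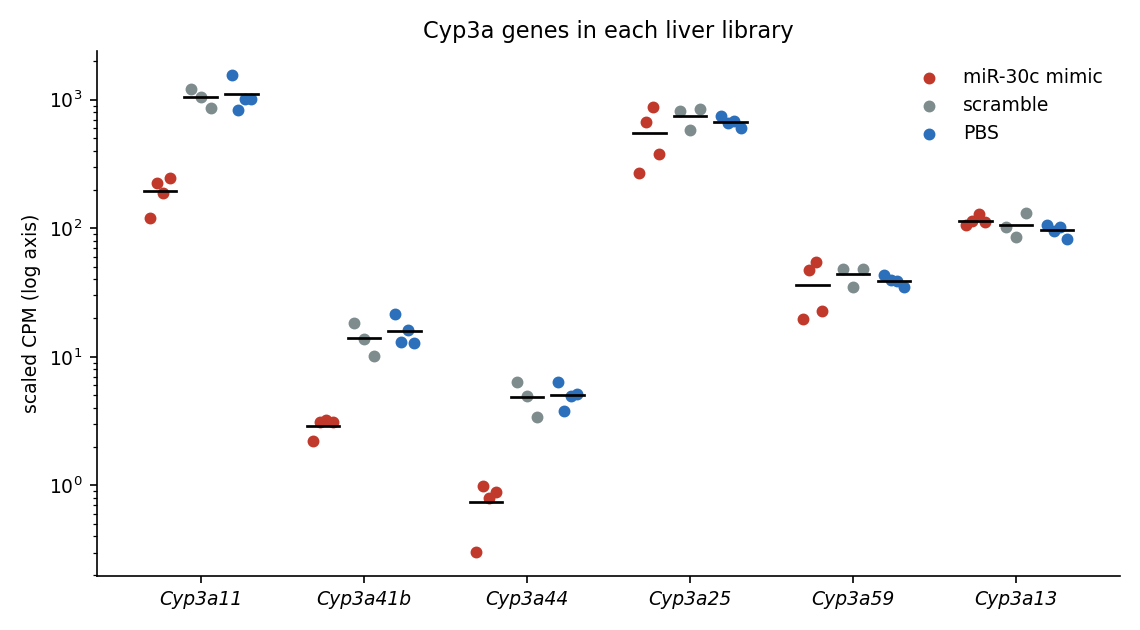
Level of each Cyp3a gene in every library, in scaled CPM on a log axis, for the mimic (red), scramble (grey) and PBS (blue) groups; points are libraries and black lines are group means. For Cyp3a11 and Cyp3a41b the 4 mimic libraries lie below all 7 control libraries. The same is seen for Cyp3a44, whose row rests on its control values. For Cyp3a25, Cyp3a59 and Cyp3a13 the groups overlap.

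Cyp3a11 had 119, 223, 188 and 247 scaled CPM in mimic replicates 1 to 4. It had 1216, 1046 and 867 in the scramble libraries and 1567, 832, 1021 and 1016 in the PBS libraries. All mimic values lay below all control values, and the highest mimic library was far under the lowest control. The means were 195 ± 55.7 in mimic (SD, n = 4), 1043 ± 175 in scramble (SD, n = 3) and 1109 ± 318 in PBS (SD, n = 4). The ratio of means was 5.36-fold lower than scramble and 5.70-fold lower than PBS. On the log2 scale mimic minus scramble was -2.45 ± 0.26 (SE, adjusted p = 7.7e-05, limma), and mimic minus PBS was -2.52 ± 0.24 (adjusted p = 3.5e-05). By the size of the log2 change Cyp3a11 stood at position 3 from the most negative of 13636 genes against scramble and at position 7 against PBS.

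Cyp3a41b had 2.21, 3.09, 3.20 and 3.12 scaled CPM in the mimic libraries. It had 18.4, 13.7 and 10.2 in the scramble libraries and 21.3, 13.0, 16.1 and 12.8 in the PBS libraries. Here too every mimic value lay below every control value. The means were 2.90 ± 0.467, 14.1 ± 4.15 and 15.8 ± 3.96 in mimic, scramble and PBS (SD, n = 4, 3 and 4), a ratio of means 4.86-fold lower than scramble and 5.45-fold lower than PBS. The log2 changes were -1.92 ± 0.20 and -2.09 ± 0.18 (SE), with adjusted p-values of 7.2e-05 and 2.3e-05 in limma.

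Cyp3a44 was the lowest of the 6. Its mimic values were 0.304, 0.984, 0.804 and 0.889 scaled CPM, which correspond to 19, 65, 47 and 78 steps. Its scramble values were 6.39, 4.91 and 3.37, and its PBS values 6.39, 3.80, 4.93 and 5.13. The mimic libraries lay below 1 and all control libraries above 3. The ratio of means was 6.56-fold lower than scramble and 6.79-fold lower than PBS, with log2 changes of -1.74 ± 0.20 and -1.80 ± 0.18 (SE). No call is drawn from these values, since the row rests on the control libraries.

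The transcripts of Cyp3a11, Cyp3a41b and Cyp3a44 share sequence, and reads from the shared stretches could have been split or moved between rows by the authors' counting. Of all runs of 48 bases, the stated read length, in the Cyp3a11 transcript, 6.57% also occurred in Cyp3a41b and 6.57% in Cyp3a44. The coding sequences were 95.0% and 94.9% identical to that of Cyp3a11. Cyp3a41a and Cyp3a41b were 99.9% identical in coding sequence, and 93.7% of the 48-base runs of Cyp3a41b occurred in Cyp3a41a, so the Cyp3a41b row may hold reads of both. Within a library Cyp3a41b amounted to 1.26% to 1.85% of Cyp3a11 in mimic, 1.17% to 1.52% in scramble and 1.26% to 1.58% in PBS. Cyp3a44 amounted to 0.254% to 0.440% of Cyp3a11 in mimic, 0.389% to 0.526% in scramble and 0.408% to 0.505% in PBS. Whether the low rows carry a signal of their own beside reads of Cyp3a11 cannot be told apart from these values.

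**Figure D2:**
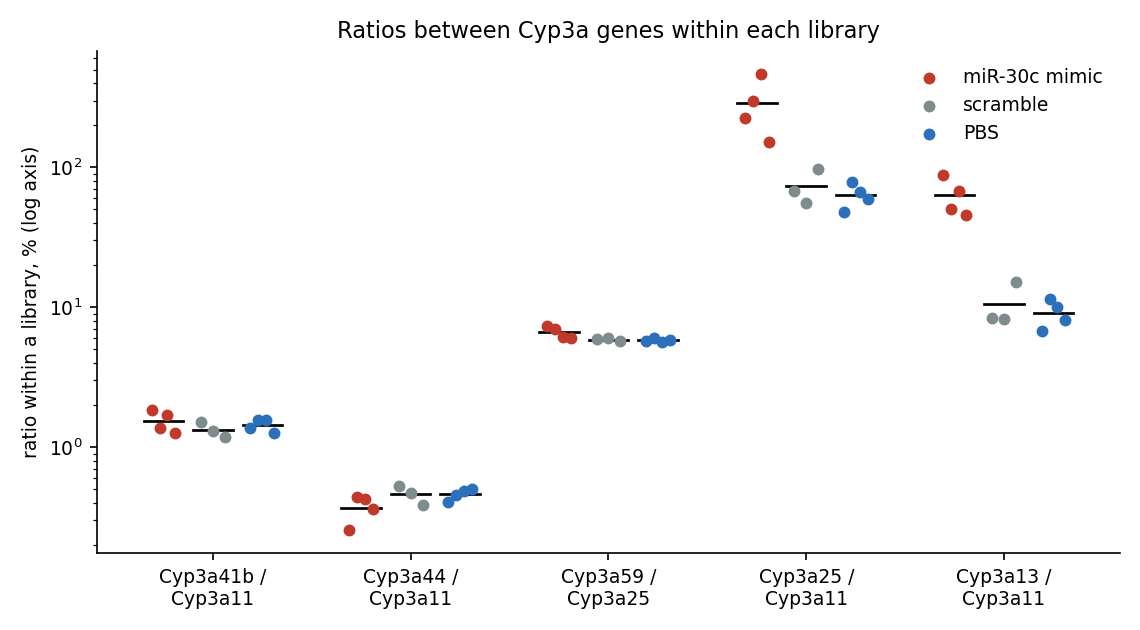
Ratio of one Cyp3a gene to another within each library, in percent on a log axis, for the mimic (red), scramble (grey) and PBS (blue) groups; points are libraries and black lines are means. The ratios of Cyp3a41b and Cyp3a44 to Cyp3a11 overlap between groups, whereas Cyp3a25 and Cyp3a13 relative to Cyp3a11 are higher in all 4 mimic libraries than in all control libraries.

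Cyp3a25, a liver form on the other side of Cyp3a11 in the cluster, had 269, 667, 880 and 377 scaled CPM in mimic replicates 1 to 4. It had 823, 581 and 844 in the scramble libraries and 750, 656, 686 and 601 in the PBS libraries. Mimic replicates 1 and 4 lay below all controls, and mimic replicates 2 and 3 lay within or above them. The mean was 548 ± 278 in mimic (SD, n = 4), 750 ± 146 in scramble (SD, n = 3) and 673 ± 62.1 in PBS (SD, n = 4). On the log2 scale mimic minus scramble was -0.58 ± 0.33 (SE, adjusted p = 0.19, limma), and mimic minus PBS was -0.44 ± 0.30 (adjusted p = 0.27). Without mimic replicate 3 the change against scramble was -0.86 and was called (adjusted p = 0.038, limma).

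Cyp3a59, the neighbour of Cyp3a25, followed the same libraries. It had 19.6, 47.0, 54.2 and 22.8 scaled CPM in mimic, 48.5, 34.8 and 48.6 in scramble and 43.0, 39.6, 38.8 and 34.9 in PBS. Again mimic replicates 1 and 4 were the lowest of all 11, and the groups overlapped. The log2 changes were -0.40 ± 0.30 and -0.24 ± 0.28 (SE), with adjusted p-values of 0.32 and 0.51 in limma. Cyp3a25 and Cyp3a59 were 97.5% identical in coding sequence and shared 26.2% and 26.4% of their 48-base runs. Cyp3a59 amounted to 6.05% to 7.30% of Cyp3a25 in mimic, 5.75% to 5.99% in scramble and 5.66% to 6.04% in PBS, and reads of the pair may have been mixed.

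The libraries with low Cyp3a25 and Cyp3a59 differed in other genes as well. Saa1, an acute phase protein of hepatocytes, had 7489 and 6231 scaled CPM in mimic replicates 1 and 4, against 3008 and 3626 in mimic replicates 2 and 3. It had 17.8 to 19.5 in scramble and 26.3 to 116 in PBS. These are also the libraries with the low Mup shares. The part of these differences in the Cyp3a25 and Cyp3a59 values was not tested. Without mimic replicates 1 and 4 together, a choice made with these values known, the change against scramble was 0.052 for Cyp3a25 and 0.21 for Cyp3a59 (adjusted p = 0.87 and 0.35, limma), while Cyp3a11 stayed lower at -2.33.

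Cyp3a13 shared 0 runs of 48 bases with any other listed gene. It had 105, 113, 128 and 112 scaled CPM in mimic, 102, 86.1 and 132 in scramble and 106, 94.7, 103 and 82.3 in PBS. The mimic values overlapped both control groups. On the log2 scale mimic minus scramble was 0.12 ± 0.14 (SE, adjusted p = 0.52, limma), and mimic minus PBS was 0.25 ± 0.13 (adjusted p = 0.14).

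How the changes are scaled bears on the genes that were not called. Dividing by library totals in place of the authors' scaling raised the median change of all genes by 0.49 against scramble and 0.51 against PBS. On that scale 41.1% of all genes were called against scramble (40.3% higher, 0.807% lower) and 51.3% against PBS (50.5% higher, 0.880% lower). Cyp3a11 and Cyp3a41b were still called lower against scramble, at -1.87 and -1.44, and Cyp3a44 stood at -1.42. Cyp3a13 was called higher against scramble and PBS, at 0.71 and 0.85 (adjusted p = 0.026 and 0.0035, limma), while Cyp3a25 and Cyp3a59 turned to 0.0062 and 0.17 against scramble without a call. Relative to the median shift these 3 values are 0.21, -0.49 and -0.32 for Cyp3a13, Cyp3a25 and Cyp3a59. On the authors' scaling they were 0.12, -0.58 and -0.40. The gap is no change of these genes, since low genes move less on the log2(value + 1) scale and hold the median shift down.

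Each gene was also set against Cyp3a11 within a library, and the difference in log2 change was tested. Relative to Cyp3a11 the mimic minus scramble change was higher by 2.58 for Cyp3a13, 2.06 for Cyp3a59 and 1.87 for Cyp3a25 (adjusted p = 0.0001, 0.00068 and 0.0012, over all genes, each with its own residual spread). Against PBS the differences were 2.77, 2.27 and 2.07. Since Cyp3a11 is among the genes that fell most, 99.5% of all genes differed from it against scramble and 99.6% against PBS, and such a call is common to nearly all genes. The ratio of Cyp3a25 to Cyp3a11 was 1.52 to 4.68 in mimic, 0.556 to 0.974 in scramble and 0.478 to 0.789 in PBS.

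For Cyp3a41b and Cyp3a44 the difference from Cyp3a11 rested on the pseudocount. With a pseudocount of 1 the differences against scramble were 0.53 (adjusted p = 0.015) and 0.71. With no pseudocount they were 0.21 ± 0.16 (SE, adjusted p = 0.23) and -0.34 ± 0.20, so that of Cyp3a44 turned its sign. Against PBS they were 0.09 ± 0.15 and -0.35 ± 0.18 (SE) with none. With the spread moderated across genes, the form run first, the call for Cyp3a41b was lost too (adjusted p = 0.12 against scramble and 0.18 against PBS). A difference between the changes of these genes and that of Cyp3a11 was therefore not established.

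Levels of different genes were compared per kilobase of the chosen coding transcript. On the authors' scaling the 6 genes summed to 232 to 593 scaled CPM per kb in mimic libraries. The sums were 793 to 1002 in scramble and 743 to 1115 in PBS, without overlap between mimic and either control. Of all single genes, 40.8% did not overlap against scramble and 31.7% against PBS. Divided by library totals, the sum of PBS replicate 3 would fall among those of the mimic libraries. Cyp3a25 ranked first in all 4 mimic libraries and in scramble replicate 3, and Cyp3a11 ranked first in the other 6 controls. Positions 3 to 6 were held by Cyp3a13, Cyp3a59, Cyp3a41b and Cyp3a44 in every library. Cyp3a11 made up 21.4% ± 7.08 of the sum in mimic (SD, n = 4), 50.2% ± 6.96 in scramble (SD, n = 3) and 53.6% ± 5.19 in PBS (SD, n = 4). Cyp3a25 made up 63.6% ± 9.02, 42.1% ± 6.06 and 39.1% ± 4.43 in mimic, scramble and PBS. The annotation also lists longer Cyp3a11 exons, 5093 bases in union against 2344 in the chosen transcript. With these the Cyp3a11 level per kb would be lower in all groups and below that of Cyp3a25 in every library. The order of the genes and their shares of the sum therefore rest on the chosen transcript.

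**Figure D3:**
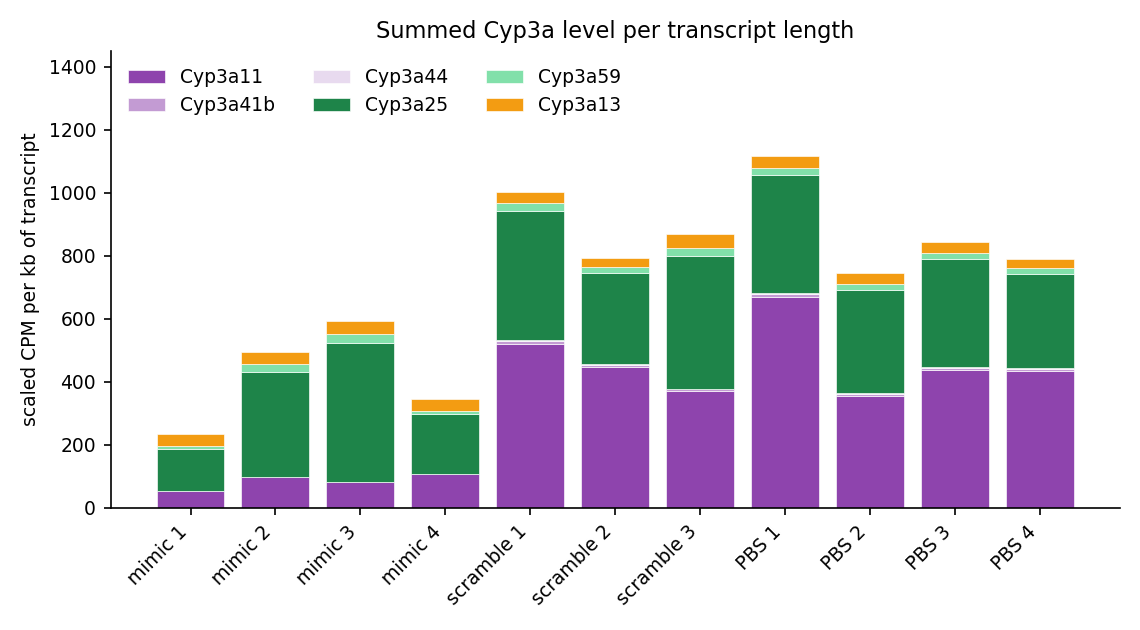
Level of the 6 Cyp3a genes per kilobase of transcript, stacked for each library, in scaled CPM per kb; bars start at 0, with mimic libraries left of scramble and PBS. On the authors' scaling the sums lie between 232 and 593 in mimic libraries and at 743 or more in all controls. The Cyp3a11 part is the smaller of the 2 main parts in each mimic library.

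The scramble and PBS groups were compared to see the injected oligomer apart from the miR-30c sequence. No Cyp3a gene was called, and 0% of all genes were (0 of 13636 in limma, with 434, or 3.18%, at an unadjusted p under 0.05). The log2 changes of scramble minus PBS were -0.06 ± 0.26 for Cyp3a11, -0.17 ± 0.20 for Cyp3a41b, -0.06 ± 0.20 for Cyp3a44, 0.14 ± 0.33 for Cyp3a25, 0.15 ± 0.30 for Cyp3a59 and 0.13 ± 0.14 for Cyp3a13 (SE). The groups overlapped for all 6 genes, whereas 4.72% of all genes did not overlap (2.39% in the lower direction). The mimic comparisons with scramble and with PBS share the mimic libraries and are not independent of each other.

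The genes beside the cluster were read from the same fit. Of the 5 nearest measured genes on each side, 0 of 10 were called against scramble, where 32.0% of all genes were, and 0 of 10 against PBS, where 37.1% were, with log2 changes of -0.15 to 0.29 and of -0.48 to 0.34. Zscan25, 145031 bases before the cluster, changed by 0.04 ± 0.08 (SE) against scramble, and Rnf6, a ubiquitin ligase 95905 bases after it, by -0.14 ± 0.08. On library totals, where the median gene moves by 0.49 and 0.51, 3 of these 10 were called higher against scramble, beside 40.3% of all genes, and 6 against PBS, beside 50.5%. On the authors' scaling, leaving out mimic replicate 3 gave 2 called against PBS. Between Cyp3a41b and Cyp3a59 no measured gene outside the Cyp3a family lies in the cluster. The low values of Cyp3a41b and Cyp3a11 thus stand in the same cluster as the uncalled values of Cyp3a25 and Cyp3a59. Cyp3a44 lies between Cyp3a41b and Cyp3a11, but its row rests on the control libraries.

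**Figure D4:**
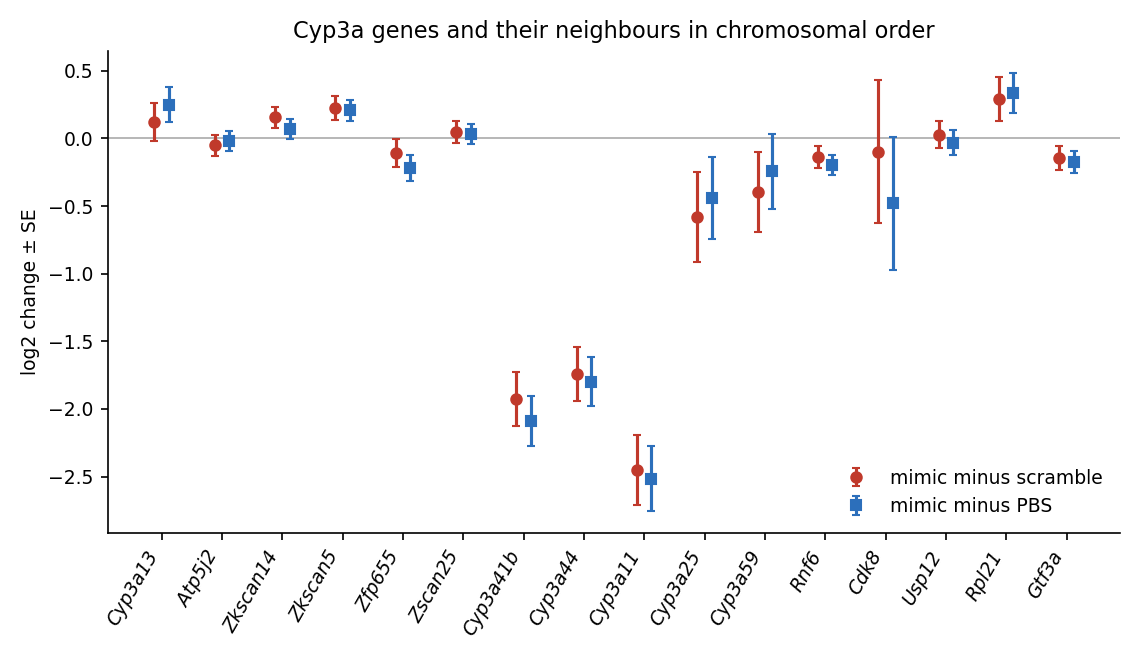
Log2 change ± SE of each Cyp3a gene and of the nearest measured genes on each side, ordered along chromosome 5 without distance, for mimic minus scramble (red circles) and mimic minus PBS (blue squares). Cyp3a41b, Cyp3a44 (whose row rests on its control values) and Cyp3a11 lie at or below -1.74. The lowest of the other genes shown is Cyp3a25 at -0.58.

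The shares of all genes stand beside the counts of the related lists: 14.7% were called lower and 17.3% higher against scramble, and 17.1% lower and 20.0% higher against PBS. Of 21 measured regulators known to act on Cyp3a genes, 7 were lower and 0 higher against scramble. The called share was near the 32.0% of all genes, but every call was lower, beside 14.7% of all genes called lower. Against PBS 6 were lower and 0 higher, beside 37.1% of all genes called, and on library totals 0 were lower and 2 higher against scramble, beside 0.807% and 40.3%. Nr1i2 (PXR) had 52.2 ± 7.99 scaled CPM in mimic and 72.6 ± 6.78 in scramble (SD, n = 4 and 3), a log2 change of -0.48 ± 0.12 (SE, adjusted p = 0.012, limma) that was 0.10 on library totals. Nr3c1, the glucocorticoid receptor, changed by -0.53 and Ncor1, a corepressor of nuclear receptors, by -0.58 (0.04 and 0.00 on library totals). Ppara, the nuclear receptor for fatty acids, changed by -0.67 (-0.09 on library totals). The list's median change was -0.17, beside 0.00 for all genes.

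Among other genes known in mouse as targets of PXR or of its relative CAR, 5 of 17 were lower and 1 higher against scramble. Against PBS 5 were lower and 1 higher. Of all genes 14.7% were called lower and 17.3% higher against scramble, and 17.1% lower and 20.0% higher against PBS. On library totals 1 was lower and 4 higher against scramble, beside 0.807% and 40.3% of all genes. Cyp2c29, a P450 of another subfamily, had 189 ± 73.3 scaled CPM in mimic and 563 ± 143 in scramble (SD, n = 4 and 3), a log2 change of -1.61 ± 0.38 (SE, adjusted p = 0.0085, limma). It was -1.02 on library totals. Ugt1a1, which conjugates bilirubin, changed by -0.93, Ugt1a9 by -0.84 and Ces2a, a carboxylesterase, by -0.87, and on library totals these were -0.34, -0.25 and -0.29. Ugt1a1 and Ugt1a9 share their last exons, so their reads may be shared.

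Of the 6 electron donors and partners of microsomal P450, 3 were lower and 0 higher against scramble, and 2 lower and 0 higher against PBS, beside 14.7% and 17.1% of all genes called lower. On library totals 0 were lower against scramble. Cyb5a, cytochrome b5, had 327 ± 53.1 scaled CPM in mimic and 476 ± 10.3 in scramble (SD, n = 4 and 3), a log2 change of -0.56 that was 0.03 on library totals. Pgrmc1, a haem-binding partner of P450 enzymes, changed by -0.42, and Cyb5r3, which reduces cytochrome b5, by -0.35 (0.16 and 0.24 on library totals). In haem synthesis and breakdown 2 of 12 genes were lower and 3 higher against scramble, and 2 lower and 4 higher against PBS, beside 32.0% and 37.1% of all genes called. On library totals 0 were lower and 7 higher against scramble, beside 40.3% of all genes called higher. Cpox and Fech, enzymes of the last steps of haem synthesis, changed by -0.73 and -0.50 (-0.15 and 0.08 on library totals), and Blvra, a biliverdin reductase, and Uros, an earlier enzyme of haem synthesis, by 0.35 and 0.41.

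**Figure D5:**
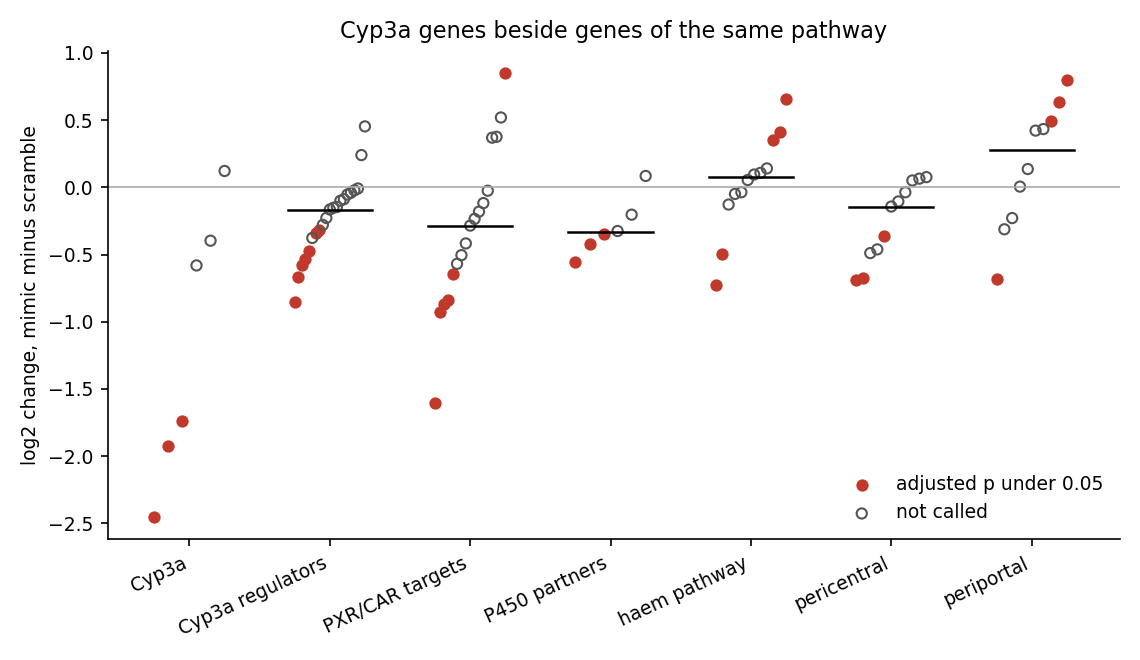
Log2 change of mimic minus scramble for the 6 Cyp3a genes and for genes of 6 related lists; filled red points had an adjusted p under 0.05 in limma, open points did not (Cyp3a44, at -1.74, rests on its control values), and black lines are the medians of the related lists. Cyp3a11 lies at -2.45, and the lowest gene of the other lists, Cyp2c29, at -1.61.

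Hepatocytes around the central vein are known for higher CYP expression than those around the portal tract. Of 11 pericentral genes 3 were lower and 0 higher against scramble, and 4 lower and 0 higher against PBS. Of all genes 32.0% were called against scramble (14.7% lower, 17.3% higher) and 37.1% against PBS (17.1% lower, 20.0% higher). On library totals 0 were lower and 1 higher against scramble, beside 40.3% called higher. Cyp2e1, a pericentral P450, changed by -0.69 and Cyp1a2 by -0.68 (-0.10 and -0.09 on library totals). Of 10 periportal genes 1 was lower and 3 higher against scramble, with 2 lower and 2 higher against PBS, again beside 32.0% and 37.1% of all genes called. On library totals 0 were lower and 6 higher against scramble, beside 40.3% called higher. Cyp2f2, a periportal P450, changed by -0.69, and Sds, serine dehydratase, by 0.80 (-0.10 and 1.38 on library totals).

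Growth hormone, whose secretion differs between male and female mice, and inflammatory cytokines are both known to act on Cyp3a expression. In growth hormone signalling 2 of 9 genes were lower and 0 higher against scramble, and 1 lower and 1 higher against PBS, beside 32.0% and 37.1% of all genes called. On library totals 1 was lower and 1 higher against scramble, beside 0.807% and 40.3%. Ghr, the growth hormone receptor, changed by -0.48 (0.10 on library totals), and Bcl6, a repressor with higher expression in male liver, by -1.41 (-0.86 on library totals; adjusted p = 0.27 against PBS, limma). Of 8 measured genes of inflammatory signals 1 was lower and 1 higher against scramble and against PBS, beside the same 32.0% and 37.1%. On library totals 0 were lower and 2 higher against scramble, beside 40.3% called higher. Tnfrsf1a, a TNF receptor, changed by 0.48, and Il6st, the shared receptor of IL-6 cytokines, by -0.43 (1.05 and 0.14 on library totals). The cytokine genes Il1b, Il6 and Tnf had no row.

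Markers of other cells were read in the same libraries, beside 14.7% of all genes called lower and 17.3% higher against scramble. Of 5 neutrophil markers 4 had a row, with summed levels of 15.1 to 30.2 in mimic, 1.14 to 1.76 in scramble and 1.65 to 2.64 scaled CPM in PBS. S100a8, S100a9 and Ltf were below 1 in every control library, so their rows rest on the mimic libraries and no count of calls is given. The same holds for the macrophage genes Gpnmb and Trem2, and Timd4 rests on the controls. The summed levels of the 11 macrophage markers, with Gpnmb, Trem2 and Timd4 included, were 145 to 274 in mimic, 90.8 to 163 in scramble and 90.2 to 200 in PBS. Single macrophage markers went in opposite directions, with log2 changes of -2.42 to 5.17 against scramble and -2.83 to 5.02 against PBS. Their median was 0.28 against scramble and 0.01 against PBS. Stellate cell markers were higher for 4 of 6, with sums of 147 to 273, 64.1 to 70.7 and 46.6 to 74.0 in mimic, scramble and PBS. Sinusoidal endothelial markers were higher for 2 of 6 against scramble, with sums of 52.1 to 81.4, 59.4 to 74.7 and 61.4 to 75.1. Against PBS 1 of them was higher and 2 were lower, beside 20.0% and 17.1% of all genes. Their median change was -0.09 against scramble and -0.14 against PBS. Of the bile duct markers 2 of 5 were measured, 1 of them higher, with sums of 35.4 to 42.5, 13.5 to 22.8 and 11.7 to 20.6. The hepatocyte list had 1 gene higher and 1 lower against scramble. Lymphocyte markers had 0 of 6 rows. Of 8 intestinal markers only Fabp2 and Apoa4 had a row, both of which liver also expresses, with sums of 339 to 865, 293 to 467 and 259 to 866 and 1 of them lower, and Vil1, Alpi, Sis, Cdx2, Lct and Muc2 had none. The part of these cells in the Cyp3a values was not tested.

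The genes with the pattern most like that of Cyp3a11 were found by Pearson's r of log2(value + 1) over the 11 libraries, leaving out Cyp3a genes and rows with provisional symbols of the Gm, Rik, LOC, BC and AI kinds. They were AK132490 (r = 0.98), Aldh3a2, a fatty aldehyde dehydrogenase (0.98), Pex11a, a peroxisomal membrane protein (0.98), Acot4, a peroxisomal acyl-CoA thioesterase (0.97), and Ppp2r5a, a phosphatase subunit (0.97). After centring on the group means r was 0.90, 0.66, 0.81, 0.88 and 0.71 in the same order. The values of a library share its depth and scaling, and a gene low in the mimic group gives a high r by that alone. Among the Cyp3a genes, centred r was 0.99 between Cyp3a25 and Cyp3a59, 0.90 between Cyp3a11 and Cyp3a44, 0.82 between Cyp3a11 and Cyp3a41b and 0.39 between Cyp3a11 and Cyp3a25, over the same 11 libraries.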

How the data were processed

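Poly(A) RNA of frozen mouse liver was sequenced as paired-end reads of 48 bases with a stranded kit, per the labels' protocols. The deposited table gives 1 signal per gene and library, CPM scaled by the authors; the submitters' processing notes name mm10, Bowtie, SAMtools 0.1.19, bedtools 2.17.0 and edgeR 3.8.6, without their settings. All values were whole multiples of 1 step per library (tolerance 1e-06). A check of the unit found too few low values in most columns, so steps were not accepted as reads and the count tests were not run. The 3 groups were fitted together with limma 3.58.1 in R 4.3.3 on log2(value + 1), with Benjamini-Hochberg adjustment over 13636 genes, after tests on simulated data. For the difference from Cyp3a11 the planned fit was run first with moderated spread. Its p-values were seen, with an adjusted p of 5.8e-17 in limma for Cyp3a13 against PBS. Each gene's own residual spread then replaced the moderated spread, because all rows share the noise of Cyp3a11. Transcripts are GENCODE M21 (GRCm38), and promoters and the microRNA RefSeq (GRCm38.p6). Named genes were all listed Cyp3a genes, up to 4 measured genes with the smallest p in each list, all neighbours and the 5 genes most like Cyp3a11. Members, lists, and the fit without mimic replicates 1 and 4 were chosen with earlier results of these data known. Alternatives were other pseudocounts, filters and scalings, a replicate block, and leaving out libraries.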

Additional observations from a re-analysis of the deposited data

Results flagged for a closer look

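Cyp3a41b in mimic replicate 1, at 2.21 scaled CPM, stood apart from the other 3 mimic libraries, which had 3.09, 3.20 and 3.12. The gap was 0.888 of the group's whole range. Chance flags about 1 in 20 groups of this size.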

How the results depend on the processing

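For Cyp3a11 and Cyp3a41b against scramble and PBS, 72 of 72 alternative values kept their direction and call. Some of these left out a library of the group outside the comparison, which repeats the change itself and can alter only the call. Of all genes, 4363 were called against scramble (2363 higher, 2000 lower) and 5059 against PBS (2733 and 2326). On library totals these were 5608 (5498 and 110) and 7002 (6882 and 120). They were 2816 and 3273 for genes with a mean of at least 5, where fewer genes were tested, and 2548 and 2894 without mimic replicates 1 and 4 together, with fewer samples. Leaving out 1 library gave 2824 to 4904 against scramble (lowest without scramble replicate 1), 3758 to 5681 against PBS and 0 to 1 for scramble against PBS.

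Uncalled Cyp3a values changed sign, and the cause was not tested. Against scramble, Cyp3a25 was 0.0062 on library totals and 0.052 without mimic replicates 1 and 4, and Cyp3a59 0.17 and 0.21. Against PBS, these were 0.17 and 0.19 for Cyp3a25 and 0.35 and 0.36 for Cyp3a59. Leaving out 1 library, Cyp3a13 ranged over -0.021 to 0.28 against scramble. For scramble minus PBS the ranges were -0.19 to 0.12 for Cyp3a11, -0.032 to 0.27 for Cyp3a13, -0.37 to 0.034 for Cyp3a41b and -0.24 to 0.14 for Cyp3a44.

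The difference from Cyp3a11 was not stable for the low genes. Against scramble, Cyp3a41b was 0.30 with a pseudocount of 0.25, 0.21 with none and 0.53 with moderated spread (uncalled), and 0.41 to 0.63 leaving out 1 library. Against PBS, it was 0.19, 0.091 and 0.43, with 0.32 on library totals and 0.30 to 0.53 leaving out 1 library. Cyp3a44 was 0.069 with a pseudocount of 0.25 and -0.34 with none against scramble, and 0.062 and -0.35 against PBS. For scramble minus PBS, Cyp3a44 was -0.0068 with a pseudocount of 0.25, -0.012 with none, -0.019 with the replicate block and -0.074 to 0.077 leaving out 1 library. Cyp3a13 was -0.10 to 0.34 and Cyp3a25 -0.020 to 0.38.

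With the replicate block 3808 and 4584 genes were called, and Cyp3a11 was -2.51 and -2.52. Deviations of same-numbered libraries correlated at -0.277 to 0.258. With 3 or 4 libraries per group these values cannot show whether they share more than a number. The planned edgeR and DESeq2 fits were not run. The 19 to 78 steps of Cyp3a44 in mimic libraries limit its precision.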
